A study of Homo sapiens with 3 samples.

Results

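The genes described here encode the enzymes of central carbon metabolism, namely glycolysis, lactate formation, pyruvate dehydrogenase, the pentose phosphate pathway, the tricarboxylic acid (TCA) cycle and its malate, citrate and glutamate exits. The members are 51 listed enzymes, matched by symbol among the 15808 genes of the deposited count table. They were chosen by function and for having a row in that table, so their presence there is no finding. RNA sequencing was available for 3 replicate libraries of OCI-Ly10, an established human line of diffuse large B cell lymphoma, treated for 6 h with MZ1, a degrader that brings BET bromodomain proteins to the VHL ubiquitin ligase. All libraries carry this treatment, so levels, isoenzyme shares and the spread between libraries are given, and no effect of MZ1 can be read from them. Whether these replicates are separate cultures is not in the labels, so p-values measure only the spread between these libraries, which may be technical.

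Glycolysis splits glucose into pyruvate in the cytosol, where hexokinase traps the sugar, phosphofructokinase commits it to breakdown and the lower steps return ATP. Lactate dehydrogenase exchanges pyruvate and lactate, while pyruvate dehydrogenase passes carbon to the mitochondrial TCA cycle and the pentose phosphate pathway makes NADPH and ribose. Several steps are served by isoenzymes from separate genes, and which of them a cell uses affects how the step is regulated. Lymphoma cells and activated B cells are known for high glucose uptake, and MYC and hypoxia-inducible factor are known activators of many glycolytic genes.

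Library totals were 5474462, 1441246 and 1314812 counts for replicates 1 to 3. A gene with no count could still reach 0.60, 1.89 and 2.30 CPM (counts relative to library size, after TMM scaling) in replicates 1, 2 and 3, taking 3 counts as the floor. Antisense genes took 0.251% of the counts in replicate 1, 2.04% in replicate 2 and 2.09% in replicate 3, so the libraries differ in this respect. B cell markers were present, and 7 of 7 listed genes had a mean of at least 10 CPM, with sums of 2164, 1354 and 2298 CPM in replicates 1, 2 and 3. For T cells 2 of 5 listed genes were analysed here, CD2 and TRAC, with sums of 4.40 to 13.2 CPM, and for monocytes LYZ and CSF1R, with 4.60 to 8.20 CPM. Of the fibroblast and epithelial genes COL1A1 and KRT8 were analysed, with 19.5 to 50.6 CPM. No analysed marker was at 0 in all 3 libraries, and CD2 was at 0 in replicates 2 and 3.

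Promoter stretches are shown for LDHA and LDHB, whose shares shifted between libraries, for HK2, a hexokinase gene that did not pass the test for variation, and for GAPDH, which had the highest value of all members. The letters come from RefSeq on GRCh38.p14, in which 49 of the 51 members had at least 1 promoter entry. Each stretch lies within the 250 bases before a listed start and was limited to its longest run without an annotated exon. For a gene with several listed starts, the start with the most CACGTG matches was taken. LDHA and HK2 have 2 listed starts each, so their stretches were selected for these matches. LDHA has 2 CACGTG matches in its 250 bases, 1 of them in the stretch shown. Capitals mark ACGTG on either strand, the core of the hypoxia response element, which is also contained in CACGTG, the E box bound by MYC and MAX. The LDHA stretch is chr11:18394313-18394387 on the plus strand, and the LDHB stretch chr12:21657972-21658092 on the minus strand. The HK2 stretch is chr2:74834920-74835169 on the plus strand, before the downstream of 2 listed starts. The GAPDH stretch is chr12:6535142-6535263 on the plus strand. The LDHB, HK2 and GAPDH stretches lie inside the GENCODE spans of their genes, downstream of the outermost annotated start, and the LDHA stretch lies directly before its gene.
LDHA: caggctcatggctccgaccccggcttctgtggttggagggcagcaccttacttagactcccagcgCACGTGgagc
LDHB: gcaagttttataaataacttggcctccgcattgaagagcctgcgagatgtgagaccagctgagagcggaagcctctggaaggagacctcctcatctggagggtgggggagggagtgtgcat
HK2: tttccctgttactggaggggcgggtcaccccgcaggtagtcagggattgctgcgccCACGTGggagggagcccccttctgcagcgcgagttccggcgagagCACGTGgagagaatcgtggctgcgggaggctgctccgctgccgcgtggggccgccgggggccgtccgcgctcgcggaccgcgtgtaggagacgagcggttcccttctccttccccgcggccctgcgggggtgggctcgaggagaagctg
GAPDH: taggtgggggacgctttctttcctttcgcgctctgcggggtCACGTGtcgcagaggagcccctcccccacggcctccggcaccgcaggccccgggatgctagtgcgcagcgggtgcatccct
Over the full 250 bases, CACGTG was found in 7 of 75 member promoters (9.33%) and in 6.34% of all 35116 promoters, at 7 genes (ALDOA, ALDOC, GAPDH, HK2, LDHA, PDHB and PFKFB3). ACGTG on either strand, counting those within CACGTG, was found in 22 member promoters (29.3%) and in 18.5% of all promoters. These matches describe letters and not binding.

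The enzymes were among the well-expressed genes. At least 1 CPM was reached in all 3 libraries by 50 of the 51 members, against 68% of all genes in the table. The exception was PDK3, a kinase of pyruvate dehydrogenase, with 73, 6 and 1 counts in replicates 1, 2 and 3. This threshold lies below the floors of replicates 2 and 3 (1.89 and 2.30 CPM), and PFKFB4 passed it with 2 counts in each. In all 3 libraries, 44 members reached 10 CPM. Levels of different genes are compared as CPM per kb of merged exons, since longer transcripts collect more counts. The median member had 34.0, 15.8 and 23.9 CPM per kb in the 3 libraries, and that of the 13086 genes averaging 1 CPM or more was 2.91, 2.80 and 3.12. The 51 genes together took 2.28% of the counts in replicate 1 (exact Clopper-Pearson 95% interval 2.26 to 2.29%), 1.78% in replicate 2 (1.76 to 1.81%) and 1.67% in replicate 3 (1.65 to 1.69%).

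Levels spanned a wide range, as the plot of all members by role shows. Lower glycolysis and lactate dehydrogenase carried most of the members' counts, at 50.1%, 54.0% and 48.1% for the 6 lower glycolytic genes and 15.3%, 22.6% and 21.9% for LDHA with LDHB. The 14 TCA cycle genes carried 10.2%, 6.56% and 7.84%. A mean of at least 100 CPM per kb was measured for 8 members, and 18 had a mean under 10. In the order of mean levels, 7 of 50 neighbouring members kept the same order in all 3 libraries, so most neighbours cannot be ranked against each other.

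**Figure D1:**
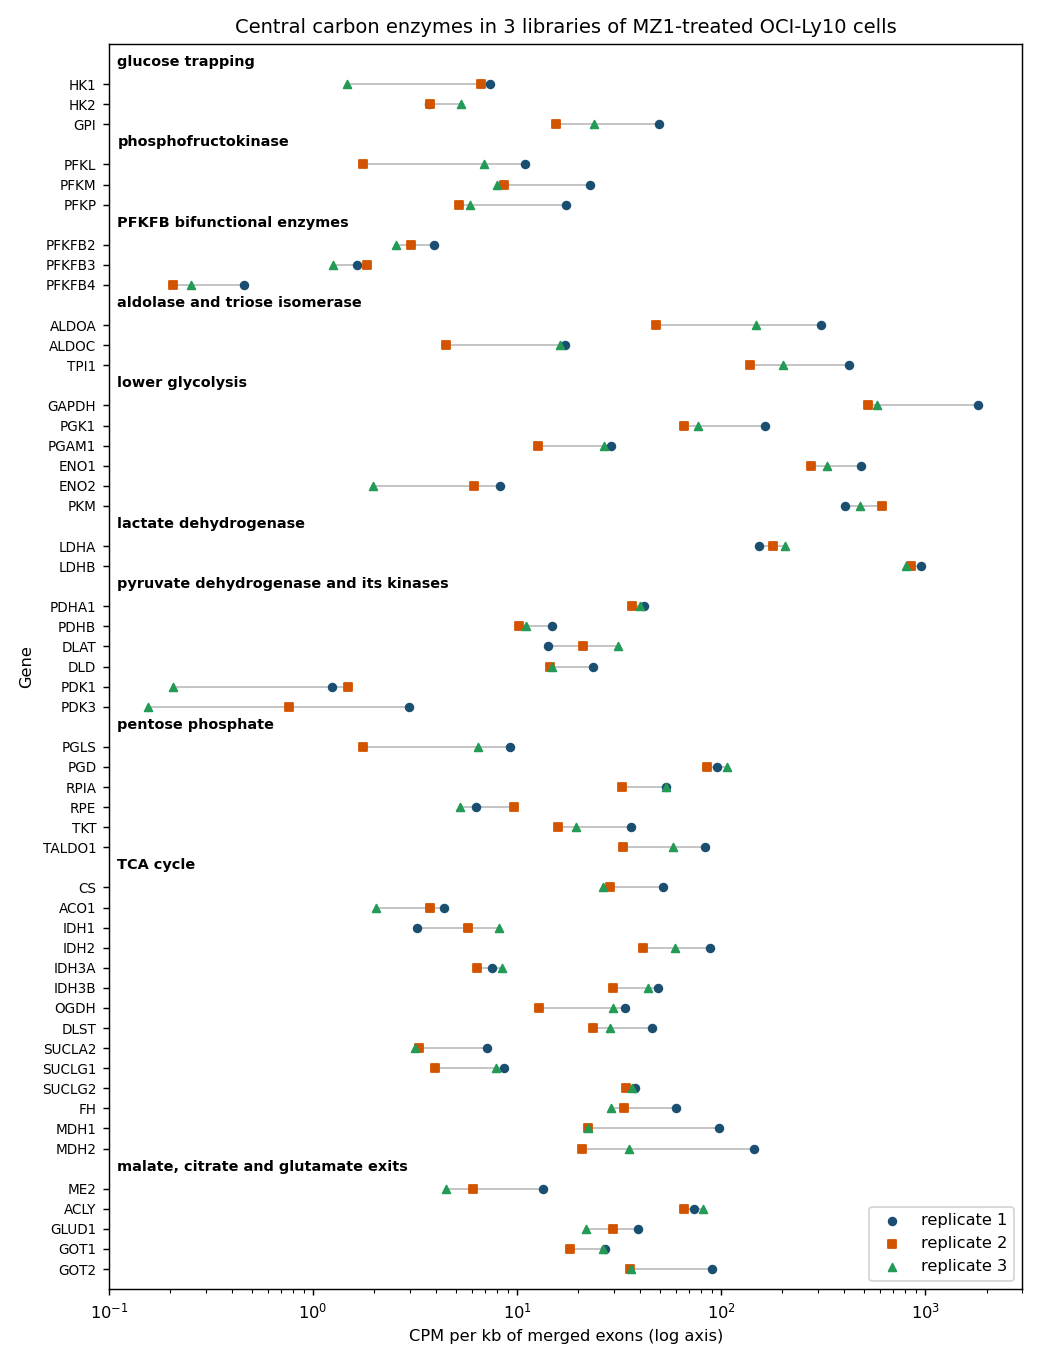
CPM per kb of merged exons (log axis) of the 51 enzymes, grouped by role, with 1 symbol per library and a grey line from the lowest to the highest library. GAPDH, LDHB, PKM and ENO1 lie furthest right, and PFKFB4, PDK1 and PDK3 furthest left; replicate 1 is the highest library for most genes, while PKM, LDHA, DLAT and IDH1 have their lowest value there.

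Along glycolysis the transcript level did not follow the order of the reactions evenly. The hexokinase step, summed over HK1 and HK2, was the lowest of 11 steps in each library, with 11.1, 10.4 and 6.78 CPM per kb in replicates 1, 2 and 3. The phosphofructokinase step had 51.1, 15.5 and 20.7, and phosphoglucose isomerase (GPI), which lies between them, 49.7, 15.5 and 23.9. These 2 steps did not differ beyond their spread, with a log2 ratio of GPI to phosphofructokinase of 0.06 ± 0.13 (SD, n = 3, as for the other ratios). From aldolase to GAPDH the level climbed, and then phosphoglycerate kinase (PGK1, 164, 65.8 and 77.2 CPM per kb) and the mutase PGAM1 (28.7, 12.7 and 26.6) lay lower again. PGAM1 lay below its upstream neighbour PGK1 and its downstream neighbour enolase in all 3 libraries. GENCODE lists 13 pseudogenes named for PGAM1, and the handling of reads shared with such copies was not stated.

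**Figure D2:**
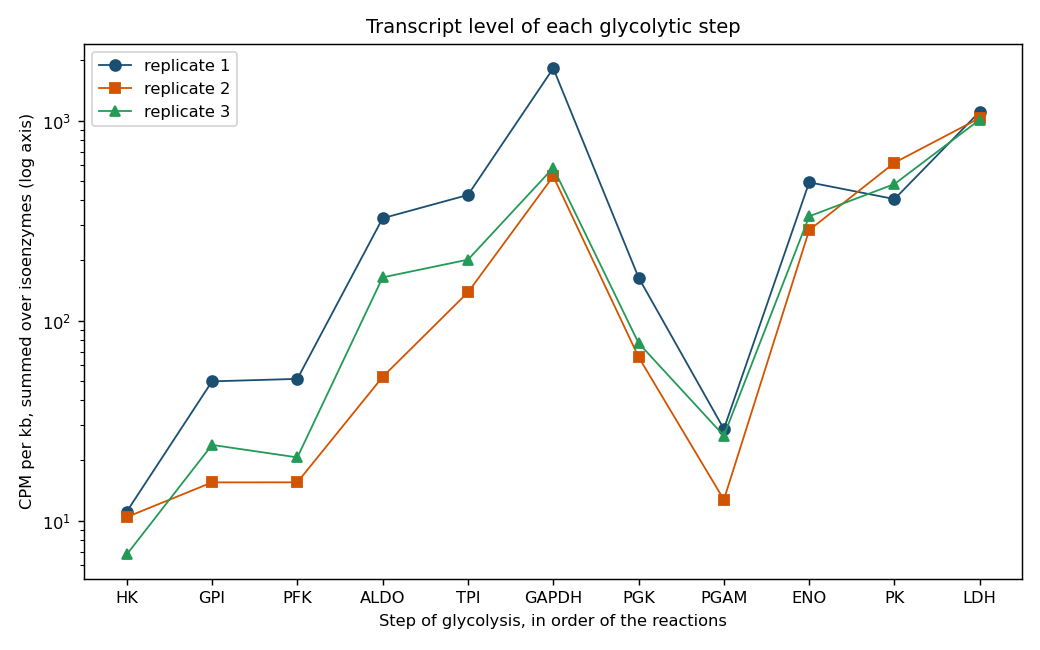
CPM per kb summed over the member isoenzymes of each glycolytic step (log axis), with the steps in the order of the reactions and 1 line per library. ENO3 and PGAM2, which are not members, are left out. The lines share the low start at hexokinase (HK) and the dip at phosphoglycerate mutase (PGAM), differ most at aldolase (ALDO), and meet at lactate dehydrogenase (LDH), with 1109, 1031 and 1012 CPM per kb.

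The top of the glycolytic order changed with the library. Lactate dehydrogenase had 1109, 1031 and 1012 CPM per kb and was the highest step in replicates 2 and 3. GAPDH had 1826, 527 and 581 and was the highest in replicate 1. Pyruvate kinase (PKM), the last ATP-forming step, had 405, 616 and 482 CPM per kb. PKM to GAPDH, a pair chosen after its values were seen, changed from a ratio of 0.222 in replicate 1 to 1.17 in replicate 2 and 0.83 in replicate 3, a comparison within each library that does not depend on library scaling.

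Most of these genes differed between libraries by more than counting noise. A chi-square test set each gene's 3 counts against the same level in every library, and with Benjamini-Hochberg adjustment over all genes tested 45 of 50 members varied, against 67.2% of the 10016 genes tested. Members are deeply covered, and where the mean count reached 50 the tallies were 43 of 47 members and 80.3% of 5707 genes. Without replicate 1, 26 of 49 members varied, against 33.8% of genes. The 5 tested members that did not pass were HK2, PFKFB3, PDHA1, IDH3A and SUCLG2, and PFKFB4 had too few counts to be tested. The median SD of log2 values over the 48 members averaging 10 CPM or more was 0.59, and it was 0.49 over all 7494 genes of that level with a GENCODE match.

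The members were more often highest in replicate 1 than genes in general. Replicate 1 held the highest value for 37 of the 48 members averaging 10 CPM or more, against 43.1% of genes of that level. Replicate 2 did so for 3 members, against 28.7%, and replicate 3 for 8, against 28.2%. The lowest value was in replicate 2 for 30 members, against 40.5% of genes, in replicate 3 for 13, against 25.5%, and in replicate 1 for 5, against 34%. With libraries scaled by column totals the tally for replicate 1 was 29 of 48, against 34.4% of genes, since this scaling raises every log2 difference of replicate 2 from replicate 1 by 0.27 and that of replicate 3 by 0.12. In replicate 1, 12 members were at least 2-fold above both other libraries, against 10.4% of genes. These were GPI, PFKM, PFKP, ALDOA, TPI1, GAPDH, PGK1, SUCLA2, MDH1, MDH2, ME2 and GOT2. No member was 2-fold below both others there, against 6.87% of genes.

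Tested between pairs of libraries, which share replicate 1, 34 of 50 members were lower in replicate 2 than in replicate 1, against 32.8% of genes, and 29 of 50 were lower in replicate 3 than in replicate 1, against 25.1%. In the other direction 5 and 4 members were higher in replicates 2 and 3 than in replicate 1, against 23.3% and 20.2% of genes. Replicate 3 was higher than replicate 2 for 22 of 49 members, against 21.1%, and lower for 7, against 12.7%.

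GC content moved with these differences. In all genes of at least 10 CPM with 55% GC or more, the median log2 difference of replicate 2 minus 1 was -1.13, and in the 11 members of that class it was -1.62. With 45 to 55% GC it was -0.21 in all genes and -0.71 in 22 members, and under 45% it was 0.23 in all genes and -0.37 in 15 members. For replicate 3 minus 1 the members' medians were -0.66, -0.62 and -0.42 in the same 3 classes, and those of all genes -0.26, -0.12 and 0.03. Members thus lay below the median of their GC class in each class, and under 45% GC 9 of 15 members were highest in replicate 1, against 32% of genes. Of the 23 members of that level without exons opposite another gene, 19 were highest in replicate 1, against 45.4% of such genes. Replicate 1 was also the deepest library and had the lowest antisense share, and the part of these, and of GC content beyond its classes, was not tested.

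**Figure D3:**
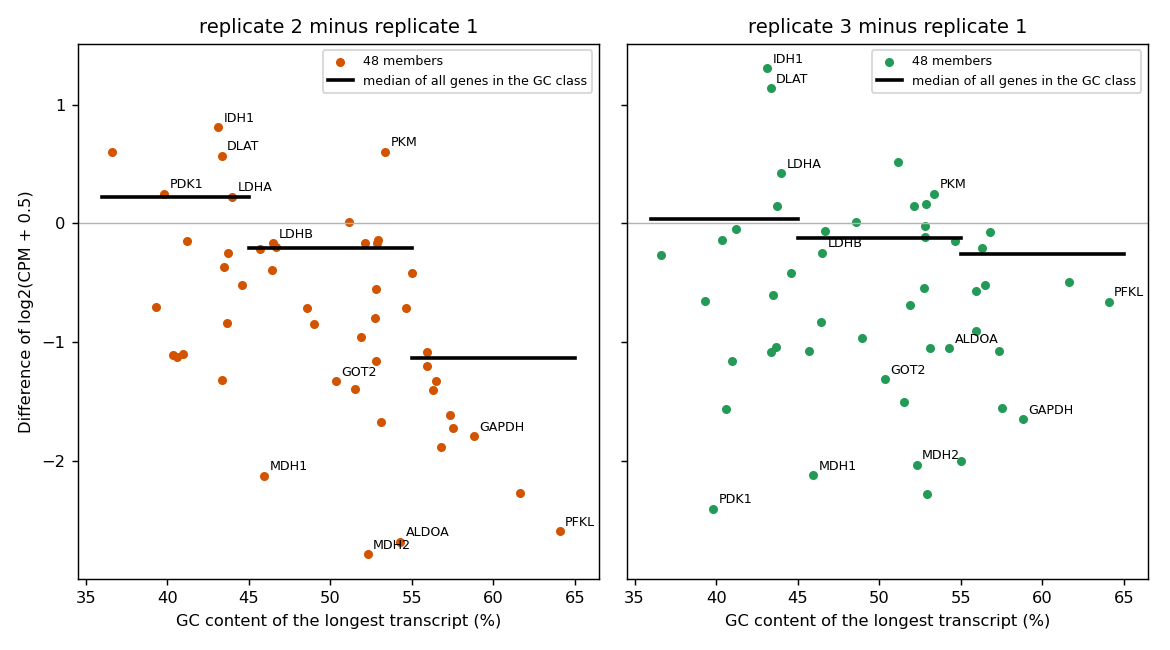
Difference of log2(CPM + 0.5) from replicate 1 for replicate 2 (left) and replicate 3 (right) against the GC content of the longest transcript, for the 48 members averaging 10 CPM or more. Black bars are the medians of all genes in 3 GC classes; most members lie below them, MDH1, MDH2 and ALDOA far below in the left panel, and IDH1 and DLAT above them in both panels.

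Glucose trapping enzymes differed in how even they were. HK1, the widely expressed hexokinase (ENSG00000156515.20, chromosome 10, 69269984 to 69401884, plus strand), had 233, 67 and 12 counts, or 7.40, 6.69 and 1.46 CPM per kb in replicates 1, 2 and 3. HK2, the inducible form typical of glycolytic tumours (ENSG00000159399.8, chromosome 2, 74833981 to 74893359, plus strand), had 112, 36 and 42 counts, or 3.69, 3.73 and 5.31 CPM per kb. HK1 varied between libraries (chi-square test, adjusted p = 3.74e-08) and HK2 did not pass (adjusted p = 0.151). HK1 made up 66.7% of the pair per kb in replicate 1 (exact 95% interval 61.4 to 71.7%), 64.2% in replicate 2 (54.1 to 73.5%) and 21.6% in replicate 3 (11.7 to 34.7%). The order of the hexokinases therefore turned in replicate 3, and the mean log2 ratio of 0.00 ± 1.57 describes none of the libraries. GPI was 3.20-fold and 2.08-fold higher in replicate 1 than in replicates 2 and 3.

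All 3 phosphofructokinase genes were measured, and PFKM had the highest value per kb in each library, within counting error in replicate 3. PFKM, the muscle form, had 22.8, 8.59 and 7.97 CPM per kb, PFKP, the platelet form, 17.4, 5.20 and 5.87, and PFKL, the liver form, 10.9, 1.76 and 6.88. PFKM lay above PFKP in 3 of 3 libraries, where PFKP to PFKM had a log2 ratio of -0.51 ± 0.18, and above PFKL, with -1.18 ± 1.02 for PFKL to PFKM. PFKP held 43.4%, 37.7% and 42.4% of the PFKP and PFKM pair, with overlapping intervals. The interval of replicate 3 (32.6 to 52.5%) includes equal shares. The share of PFKL was less even, from 17.0% of the PFKL and PFKM pair in replicate 2 (11.2 to 24.3%) to 46.3% in replicate 3 (38.4 to 54.5%). The latter interval also includes equal shares. In replicate 3 PFKL had 80 counts and PFKM 76, so their order there rests on the length correction. The longest transcript of PFKL has 64.1% GC, the highest of the members.

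The PFKFB enzymes make and remove the allosteric activator of phosphofructokinase, and their levels were low. PFKFB2 passed the test for variation narrowly (chi-square test, adjusted p = 0.0456) and PFKFB3 did not (adjusted p = 0.655). PFKFB2 had 3.92, 3.02 and 2.56 CPM per kb, PFKFB3, a form induced by hypoxia and growth signals, 1.64, 1.85 and 1.25, and PFKFB4 0.458, 0.206 and 0.251, from 14, 2 and 2 counts. The order PFKFB2, PFKFB3, PFKFB4 held in all 3 libraries. PFKFB2 stood at 1.93-fold PFKFB3, with a log2 ratio of 0.95 ± 0.27, and at 8.50-fold PFKFB4, with 3.09 ± 0.29. Shares of the 3 pairs had overlapping intervals in all libraries, at low depth. For PFKFB2 against PFKFB3 the intervals of replicate 2 (48.3 to 74.9%) and replicate 3 (49.6 to 82.2%) include equal shares. Their order was thus beyond counting error in replicate 1 alone.

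Across 15 isoenzyme pairs, 11 kept the same order of point values in all 3 libraries. The exact two-sided sign-flip permutation test of a log2 ratio cannot give a p below 0.25 with 3 libraries, which is the value for each of these 11, so no pair can pass 0.05. The intervals of the shares cover counting error only, and for 11 pairs no share was common to all 3 intervals, so that the balance differed between libraries by more than counting noise even where the order did not.

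**Figure D4:**
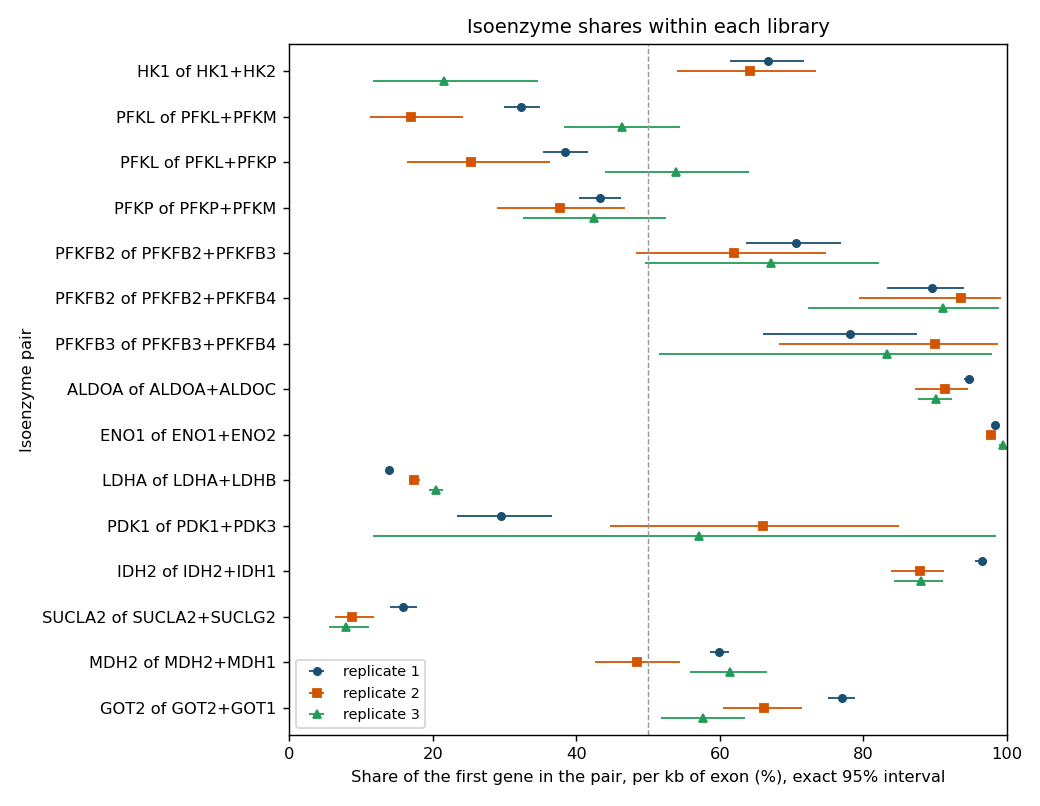
Share of the gene named on the left in its isoenzyme pair, computed per kb of merged exons, for 15 pairs in 3 libraries, with exact 95% intervals from the counts and a dashed line at equal shares. ENO1, ALDOA and IDH2 sit at 87.9% or above, LDHA and SUCLA2 between 7.96% and 20.4%, and the point values of HK1, PFKL against PFKP, PDK1 and MDH2 change sides between libraries.

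Among the members, aldolase and enolase were each dominated by a single gene. ALDOA (ENSG00000149925.15, chromosome 16, 30064164 to 30070457, plus strand) had 308, 47.8 and 148 CPM per kb, and ALDOC, the brain-type form, 17.1, 4.51 and 16.2. Both were lowest in replicate 2, and ALDOA was 11.8-fold above ALDOC, with a log2 ratio of 3.56 ± 0.52. The triose phosphate isomerase TPI1, which interconverts the products of aldolase, followed with 425, 139 and 202 CPM per kb. Replicate 1 exceeded replicate 2 by 6.44-fold for ALDOA and by 3.07-fold for TPI1. ENO1 had 483, 277 and 330 CPM per kb and ENO2, the neuronal enolase, 8.27, 6.17 and 1.97, from 177, 42 and 11 counts. ENO1 held 98.3%, 97.8% and 99.4% of this pair, a log2 ratio of 6.21 ± 0.97. The muscle enolase ENO3, which is not a member, had 14.4, 10.1 and 41.6 CPM per kb. It lay above ENO2 in each library and is not counted in this share.

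GAPDH, often taken as a constant reference gene, was among the less even members. GAPDH (ENSG00000111640.13, chromosome 12, 6533927 to 6538374, plus strand) had 27223, 2499 and 2256 counts, or 5443, 1571 and 1731 CPM. It was 3.47-fold and 3.15-fold higher in replicate 1 than in replicates 2 and 3, which lay close to each other. The antisense gene AC006064.4, whose exons overlap those of GAPDH, had 12, 101 and 319 counts, lowest in replicate 1. GENCODE lists 62 pseudogenes named for GAPDH, 1 of which is in the table. PKM (ENSG00000067225.16, chromosome 15, 72199029 to 72231822, minus strand) had 3472, 5279 and 4129 CPM and, unlike GAPDH, was lowest in replicate 1. PKM has no exons opposite another gene.

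LDHB was the main lactate dehydrogenase transcript in every library. LDHB, the heart-type subunit favouring pyruvate (ENSG00000111716.11, chromosome 12, 21635342 to 21757857, minus strand), had 14252, 4039 and 3130 counts, or 955, 851 and 805 CPM per kb. LDHA, the muscle-type subunit favouring lactate (ENSG00000134333.12, chromosome 11, 18394388 to 18408425, plus strand), had 4779, 1775 and 1673 counts, or 154, 180 and 207 CPM per kb. LDHB ranked highest and LDHA lowest in replicate 1, so their order among libraries was opposite. LDHA made up 13.9% of the pair per kb in replicate 1 (exact 95% interval 13.5 to 14.3%), 17.4% in replicate 2 (16.6 to 18.3%) and 20.4% in replicate 3 (19.5 to 21.4%), and these intervals do not overlap. The log2 ratio of LDHA to LDHB was -2.28 ± 0.34, a level 4.86-fold higher for LDHB, and -1.87 with the length of the longest transcript. Neither gene has exons opposite another gene, and with a CV of 8.85% for LDHB and 14.7% for LDHA they were among the steadier members.

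The subunits of pyruvate dehydrogenase, which converts pyruvate to acetyl-CoA, differed in their course. PDHA1, the catalytic alpha subunit on chromosome X, had 42.1, 36.8 and 40.3 CPM per kb and did not pass the test for variation (chi-square test, adjusted p = 0.186). PDHB, its partner, had 14.8, 10.3 and 11.1. PDHA1 stood above PDHB in each library, with a mean log2 ratio of 1.73 ± 0.20, a pair chosen after its values were seen. DLAT, the acetyltransferase core, went the other way from most members, with 14.2, 21.1 and 31.3 CPM per kb (chi-square test, adjusted p = 5.50e-18). DLD, the dehydrogenase shared with the oxoglutarate complex, had 23.6, 14.5 and 14.9.

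The kinases that switch this complex off were scarce. PDK1 had 92, 35 and 4 counts, or 1.24, 1.48 and 0.206 CPM per kb, and PDK3 had 73, 6 and 1 counts, or 2.95, 0.762 and 0.155. Both were lowest in replicate 3. PDK1 held 29.5% of the pair in replicate 1 (23.4 to 36.6%) and 66.0% in replicate 2 (44.7 to 84.9%), while the 5 counts of replicate 3 left the share between 11.6 and 98.5%. The intervals of replicates 2 and 3 include equal shares, so an order per kb could be told in replicate 1 alone, with PDK3 the higher. That order depends on the length correction, since PDK1 had more counts than PDK3 in each library.

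In the pentose phosphate pathway the oxidative enzyme PGD was high and even. PGD, which makes NADPH, had 95.05, 85.0 and 107 CPM per kb, a CV of 11.3%. PGLS, the lactonase just before it, was much lower, with 9.20, 1.77 and 6.47, and varied more, from 131, 8 and 24 counts. Among the enzymes that rearrange pentoses, RPIA, which forms ribose phosphate, had 53.6, 32.6 and 54.0 CPM per kb, and RPE, the epimerase, 6.30, 9.64 and 5.23. RPE was highest in replicate 2, where RPIA was lowest, and its transcript has 36.6% GC, the lowest of the members. TALDO1 had 83.8, 33.3 and 58.5 CPM per kb and TKT 36.4, 15.8 and 19.4, with TKT below TALDO1 in each, at a mean log2 ratio of -1.29 ± 0.27. These pairs of different enzymes, like IDH3B and IDH3A below, were picked with their values in view.

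The TCA cycle lay below lower glycolysis by a similar ratio in each library. The median of its 14 genes was 42.0, 21.5 and 27.4 CPM per kb, against 285, 171 and 204 for the 6 lower glycolytic genes, a log2 ratio of 2.88 ± 0.12. Citrate synthase (CS), the entry to the cycle, had 51.7, 28.7 and 26.4 CPM per kb. ACO1, the cytosolic aconitase that also acts as an iron sensor, had 4.37, 3.74 and 2.03. FH, the fumarase, had 60.0, 33.4 and 29.01. For each of these 3 genes replicate 1 was the highest and replicate 3 the lowest library.

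IDH2, the mitochondrial isocitrate dehydrogenase that makes NADPH, exceeded its cytosolic counterpart IDH1. IDH2 had 88.2, 41.5 and 59.4 CPM per kb and IDH1 3.22, 5.72 and 8.12, from 76, 43 and 50 counts. IDH1 was lowest in replicate 1, where IDH2 was highest, and the share of IDH2 in the pair was 96.5% (95.6 to 97.2%), 87.9% (83.8 to 91.2%) and 88.0% (84.3 to 91.0%) in replicates 1, 2 and 3. The log2 ratio of IDH2 to IDH1 was 3.48 ± 1.09, and it was 2.85 without replicate 1 and 2.59 with the length of the longest transcript. For the NAD-dependent enzyme, the beta subunit gene IDH3B had 48.8, 29.6 and 43.9 CPM per kb and the catalytic alpha subunit gene IDH3A 7.58, 6.35 and 8.42. IDH3B lay above IDH3A by a log2 ratio of 2.42 ± 0.24 in 3 of 3 libraries, and 2655 bases of IDH3A exons lie opposite CIB2 and ACSBG1.

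Succinyl-CoA ligase pairs a common alpha subunit, SUCLG1, with a beta subunit that forms GTP (SUCLG2) or ATP (SUCLA2). SUCLG2 had 37.9, 34.2 and 36.7 CPM per kb, a CV of 5.28%, the smallest of the members, and did not pass the test (chi-square test, adjusted p = 0.541). SUCLA2 had 7.17, 3.31 and 3.18 CPM per kb, and SUCLG1 8.68, 3.96 and 7.88. The GTP-forming subunit was the higher of the beta subunits in every library, and the log2 ratio of SUCLA2 to SUCLG2 was -3.09 ± 0.60, and -2.05 with the length of the longest transcript. SUCLA2 held 15.9% of the pair in replicate 1 (14.1 to 17.8%), 8.83% in replicate 2 and 7.96% in replicate 3. The oxoglutarate dehydrogenase gene OGDH had 34.0, 12.8 and 29.4 CPM per kb, and DLST, the succinyltransferase of the same complex, 46.0, 23.6 and 28.5.

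Both malate dehydrogenases, which convert malate and oxaloacetate, were far higher in replicate 1 than in the other libraries, and MDH2 had the highest ratio of replicate 1 to replicate 2 of the 51 members. MDH2, the mitochondrial form (ENSG00000146701.10, chromosome 7, 76048051 to 76067508, plus strand), had 2649, 121 and 168 counts, or 145, 20.9 and 35.4 CPM per kb. MDH1, the cytosolic form (ENSG00000014641.16, chromosome 2, 63588609 to 63607197, plus strand), had 2429, 176 and 145 counts, or 97.3, 22.2 and 22.3 CPM per kb. MDH2 was 6.96-fold and 4.11-fold higher in replicate 1 than in replicates 2 and 3, and MDH1 4.39-fold and 4.37-fold. Their levels relative to each other could not be ranked, with a log2 ratio of MDH2 to MDH1 of 0.39 ± 0.41, and -0.49 with the length of the longest transcript. MDH2 and MDH1 have 52.3% and 45.9% GC, in the class of 45 to 55%. The median log2 difference of replicate 2 minus 1 over all genes of that class was -0.21. The part of GC content in these 2 genes was not tested.

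GOT2 and GOT1, the mitochondrial and cytosolic aspartate transaminases that work with MDH2 and MDH1 in the malate-aspartate shuttle, were less alike. GOT2 had 90.0, 35.7 and 36.1 CPM per kb and GOT1 26.9, 18.3 and 26.4. GOT2 held 77.0% of the pair in replicate 1 (75.1 to 78.8%), 66.1% in replicate 2 (60.5 to 71.5%) and 57.7% in replicate 3 (51.8 to 63.5%), and lay above GOT1 in 3 of 3 libraries, at a log2 ratio of 1.05 ± 0.65. ME2, the mitochondrial malic enzyme, had 13.4, 6.11 and 4.49 CPM per kb and GLUD1, which releases ammonia from glutamate, 39.0, 29.6 and 21.8. ACLY, which turns exported citrate into acetyl-CoA for lipid synthesis, stood apart from these by its evenness, with 73.8, 65.8 and 81.9 CPM per kb and a CV of 10.9%.

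Of 28 other genes of the pathway, 17 were analysed here, namely transporters, further isoenzymes and regulators, and 14 of them reached 1 CPM in all 3 libraries. All 14 were tested, and 7 varied, against 67.2% of genes. Several of them had few counts. With testing and adjustment limited to genes whose mean count reached 50, 6 of 8 varied, against 81.1% of genes. SLC16A1, a lactate transporter, had 21.9, 19.5 and 23.8 CPM per kb, MPC2, a subunit of the mitochondrial pyruvate carrier, 10.8, 7.63 and 8.12, and the glucose transporter SLC2A3 6, 2 and 0 counts. PDP1, a phosphatase that reactivates pyruvate dehydrogenase, had 16, 12 and 6 counts. ENO3, the muscle enolase, had 14.4, 10.1 and 41.6 CPM per kb, and its exons overlap the abundant gene PFN1 on the opposite strand. PGAM2 had 0, 0 and 4 counts and PDK2 30, 4 and 3 counts.

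Exons of 25 of the 51 members overlap exons on the opposite strand, and the strand setting of the counting was not stated, so reads of such a pair cannot be told apart. They are HK1, HK2, PFKM, PFKFB2, ALDOA, ALDOC, TPI1, GAPDH, ENO1, PDHA1, PDHB, DLAT, DLD, PDK1, PGLS, RPE, CS, IDH1, IDH3A, SUCLA2, MDH1, ACLY, GLUD1, GOT1 and GOT2. The partners named here were picked with their values in view. WDPCP opposite MDH1 had 49, 27 and 11 counts, and SENP1 opposite PFKM 135, 69 and 37. WDPCP stayed far below MDH1 in every library, while SENP1 was nearer to PFKM in replicate 2 (100 counts) than in replicate 1 (834 counts). Pseudogenes of their own name are listed by GENCODE for 21 members, and 7 of these have such a copy in the table, so their counts are uncertain to the extent that reads were shared.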

How the data were processed

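RNA was sequenced from 3 libraries of OCI-Ly10 cells after 6 h of MZ1. The deposited counts are raw read counts per gene, and the deposited log2 values are log2 CPM computed by the authors, with an offset of 0.452 CPM. STAR, edgeR and hg38 are named per the submitters' processing notes. For versions, counting tool, strand setting and annotation release: not given in the sources used here. IDs without their version were matched to GENCODE 29 on GRCh38 (15668 of 15808). Counts were scaled with TMM factors (edgeR 4.0.16, R 4.3.3) of 0.914, 1.10 and 0.991 for replicates 1 to 3 (1 count then equals 0.20, 0.629 or 0.767 CPM), and divided by merged exon length. Log2 values use a pseudocount of 0.5 CPM, which understates differences of low genes. Variation between libraries was tested by chi-square (scipy 1.17.1) where the mean count reached 10, adjusted by Benjamini-Hochberg over all such genes, at 0.05. It compares libraries, not conditions. It was tried on simulated data with counting noise alone, the noise that the test assumes, so its behaviour under wider spread was not tested. Intervals and floors cover counting error only, because reads lacking molecular identifiers may repeat a molecule. The members, roles, pairs and lists were chosen with earlier results of these data known. All members may be named, with the 2 highest and the lowest gene of each other list and those with no count in a library. Some genes that this rule names are not reported here. Alternatives were DESeq2 1.42.0 size factors, column totals, the deposited values, other lengths, pseudocounts, filters and thresholds, and leaving out each replicate.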

Additional observations from a re-analysis of the deposited data

How the results depend on the processing

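Leaving out each replicate gave 26 of 49 varying members without replicate 1, 33 of 50 without replicate 2 and 39 of 50 without replicate 3, in place of 45 of 50. The share over all genes moved with them, to 33.8%, 45.2% and 56.2% in place of 67.2%. These settings also compare fewer libraries and counts, and the part of this in the shift was not tested. The other settings gave 42 to 44. Members at 1 CPM in all libraries numbered 50 or 51 under every setting tried, and 44 reached 10 CPM. The share of members highest in replicate 1 was 60.4% with column totals (34.4% of all genes) and 83.3% with the deposited values (44.4%). With only 2 libraries compared it was 81.2% without replicate 2 (54.5%) and 83.7% without replicate 3 (56.1%). It was 60.0% in the members under 45% GC (32% of such genes), a subset chosen after seeing the data. Between 11 and 13 of 15 isoenzyme pairs kept 1 order. The log2 ratio of lower glycolysis to the TCA cycle, 2.88 in the report, was 3.23 with the longest transcript, 3.55 without length correction and 3.49 with means in place of medians, and 2.83 to 2.94 when a replicate was left out. Without mitochondrial chromosome genes the members' share of counts was 2.68%, 2.08% and 1.94% in replicates 1, 2 and 3. Of 120 isoenzyme ratios under alternatives, 112 kept their sign and 8 did not. HK1 to HK2 was -0.0040 with a pseudocount of 0.1 CPM, -0.49 without replicate 1, -0.41 without replicate 2 and 0.91 without replicate 3. PDK1 to PDK3 ranged from -0.69 without replicate 2 to 0.37 without replicate 1, and was 1.405 without length correction. PFKL to PFKP was 0.21 without length correction, and MDH2 to MDH1 -0.49 with the longest transcript and -0.067 without length correction. Leaving out replicate 1 gives no count of members highest in it. IDH2 to IDH1 was 2.73 and LDHA to LDHB -1.22 without length correction. The cause of these changes was not tested beyond what each setting alters. No paired analysis was possible because the labels form 1 group. The depth of replicates 2 and 3 limits PDK1, PDK3, PFKFB4, ENO2 and PGLS.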
